A study of Rattus norvegicus with 36 samples.

Results

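Mammary glands of Copenhagen (Cop) rats were compared at 1 d and at 6 h after treatment with N-nitrosomethylurea (NMU), using 3 arrays at each time. These 6 arrays were chosen by their titles from a series of 36, in which 18 arrays came from each of 2 strains, Cop and F344, with 12 groups of 3 formed by strain, treatment and time (6 h, 1 d or 30 d). All rats were 55 days old. The treated Cop group at 6 h and the treated Cop group at 1 d differ in their labels only in the time after NMU. Cop glands given the saline vehicle and collected at the same times, and F344 glands given NMU and collected at the same times, with 3 arrays in each group, served for comparison. The replicates are labelled biological, whether each is a separate animal is not stated, and the p-values therefore measure the spread between these arrays. The sources used here do not give the dose of NMU, the feeding or the time of day of collection.

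NMU is a direct-acting methylating agent that alkylates DNA without metabolic activation, and O6-methylguanine left in DNA mispairs and is mutagenic. It induces mammary carcinomas in young female rats of susceptible strains such as F344, whereas Cop rats are known as resistant. The gland at this age holds ducts and end buds of luminal and basal epithelium in a stroma of fibroblasts, vessels and abundant adipocytes. Its fat stores and synthesises lipid according to feeding and insulin, and its matrix is made mainly by fibroblasts.

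Levels are log2 values per probe set, so that a difference of 1 is a doubling. A course is the mean level at 1 d minus the mean level at 6 h. A probe set was called when the adjusted p of limma's moderated test was under 0.05. Over the whole table, 1472 of 20749 tested probe sets were called between 1 d and 6 h (7.09%), of which 530 were higher (2.55%) and 942 lower at 1 d (4.54%). With 1 probe set for each of 11509 genes, 8.71% of genes were called, 3.23% higher and 5.48% lower, and the median course of all genes was -0.02. Without 6 h replicate 2 the count of probe sets was 712, without 1 d replicate 1 it was 938 and without 1 d replicate 3 it was 839. Vehicle-treated Cop glands changed in 103 probe sets over the same interval (0.496%, 28 higher and 75 lower, or 78 higher and 90 lower after quantile normalization), a count that lay between 9 (without 6 h replicate 2) and 186 (without 6 h replicate 3) when 1 vehicle array was left out. The difference between the treated and the vehicle course, fitted as an interaction, was called for 501 probe sets (2.41%, with 1.64% lower) and 3.04% of genes, with 306 probe sets without 6 h replicate 2 of the treated glands and 309 without 1 d replicate 2 of the vehicle glands.

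The markers of the gland were present on every array of the comparison. Krt8, Krt18, Krt14, Krt5, Acta2, Epcam and Adipoq all lay above the 85th percentile of their array, the lowest being Krt14 at percentile 85.2. Of the treated arrays, 6 h replicate 1 stood apart from its 2 replicates in several marker lists. A list score is the average, over the measured genes of a list, of how far the gene lies from its own mean over all 36 arrays. The score of T and NK cell markers at 6 h was -0.03, -1.04 and -0.99 in replicates 1, 2 and 3, and that of milk genes was 0.30, -1.07 and -1.01. Skeletal muscle genes, which mark body wall muscle taken with the gland, scored -0.53, 0.41 and 0.46 at 6 h and -1.80, 0.71 and -0.21 at 1 d, so both times held arrays of high and of low score. In whole glands fewer cells of a type and less RNA per cell cannot be told apart.

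**Figure D1:**
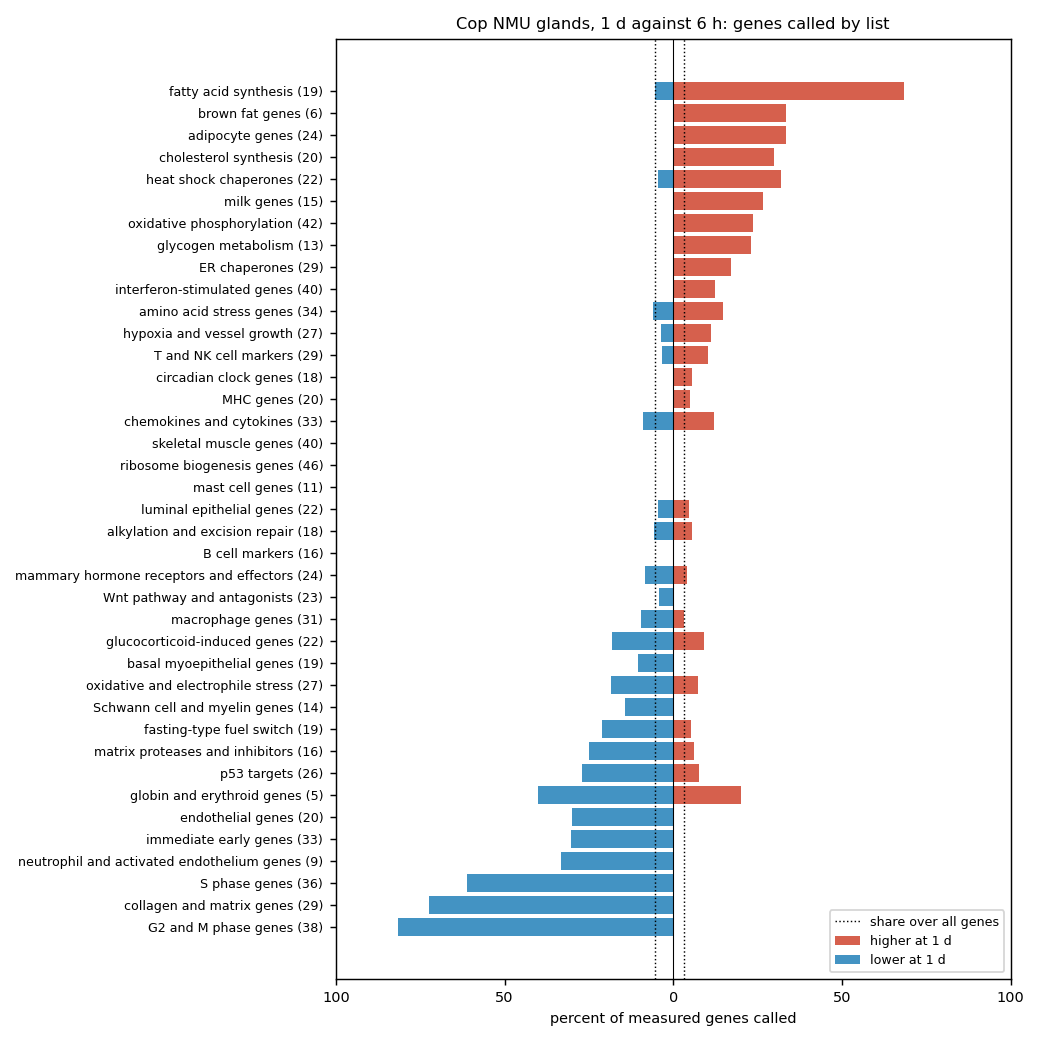
Percent of the measured genes of each list that were called higher (right) or lower (left) at 1 d than at 6 h in Cop NMU glands, with the number of measured genes in brackets. Dotted lines mark the shares over all genes, 3.23% higher and 5.48% lower. Genes of G2 and M phase and of the matrix stand at the lower end and genes of fatty acid synthesis at the upper end.

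Among 39 gene lists, the genes of cell division had the largest share of called members. Of 38 measured genes of G2 and M phase, 31 fell, none rose, and the median course was -1.74, against 5.48% of all genes called lower. In 36 of the 38 all 3 arrays at 1 d lay below all 3 at 6 h, which held for 18.4% of all genes. The promoters of the 4 members with the smallest p and a sequence in the RefSeq table of build GRCr8 are shown because genes of this class are known to share 2 short elements, the CCAAT box and the cell cycle homology region (CHR). They are 300 bases around the gene's start, 5′ to 3′ along the gene, with the CHR letters TTTGAA and the CCAAT box CCAAT, read on both strands (TTCAAA and ATTGG), in capitals. Kif22 lies at chr1:191080829-191081128 on the minus strand, Mki67 at chr1:199952544-199952843 on the minus strand, Prc1 at chr1:143659231-143659530 on the plus strand and Cks2 at chr17:13727470-13727769 on the minus strand.
Kif22: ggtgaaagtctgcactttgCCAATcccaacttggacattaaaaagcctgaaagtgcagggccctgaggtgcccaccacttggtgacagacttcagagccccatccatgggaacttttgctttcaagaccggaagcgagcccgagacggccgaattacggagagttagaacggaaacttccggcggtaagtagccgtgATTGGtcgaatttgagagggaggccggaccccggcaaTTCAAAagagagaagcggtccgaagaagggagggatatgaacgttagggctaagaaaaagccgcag
Mki67: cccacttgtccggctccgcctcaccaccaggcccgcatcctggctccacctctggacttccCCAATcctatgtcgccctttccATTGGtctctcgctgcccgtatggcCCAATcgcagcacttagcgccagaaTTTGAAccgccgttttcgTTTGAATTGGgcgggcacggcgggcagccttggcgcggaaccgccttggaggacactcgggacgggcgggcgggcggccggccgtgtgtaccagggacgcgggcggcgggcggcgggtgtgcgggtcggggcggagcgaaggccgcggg
Prc1: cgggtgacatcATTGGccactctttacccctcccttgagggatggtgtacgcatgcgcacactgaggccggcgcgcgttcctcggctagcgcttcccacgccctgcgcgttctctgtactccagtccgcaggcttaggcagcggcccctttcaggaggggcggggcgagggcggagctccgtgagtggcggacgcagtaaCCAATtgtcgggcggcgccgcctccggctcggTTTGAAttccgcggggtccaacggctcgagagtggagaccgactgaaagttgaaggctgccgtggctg
Cks2: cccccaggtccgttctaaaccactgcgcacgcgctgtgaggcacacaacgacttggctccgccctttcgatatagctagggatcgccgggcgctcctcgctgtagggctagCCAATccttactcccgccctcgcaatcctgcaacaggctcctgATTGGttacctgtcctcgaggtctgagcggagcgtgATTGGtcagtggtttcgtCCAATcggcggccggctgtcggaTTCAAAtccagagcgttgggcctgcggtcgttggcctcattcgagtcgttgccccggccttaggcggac
In Mki67 the second TTTGAA runs into the last ATTGG. Of the 38 genes 33 had a promoter in the table, and 23 of these held a CHR match (69.7%) and 26 a CCAAT match (78.8%). Among all 27457 promoters of this length 18.1% held a CHR match and 37.7% a CCAAT match. For genes of S phase, the share with CHR letters was 12.5% and with CCAAT letters 56.2% of 32 promoters. CCAAT letters were also frequent in lists with risers, at 68.8% of 16 promoters of fatty acid synthesis and 81.2% of 16 of cholesterol synthesis, and stood at 38.9% of 18 for collagen and matrix genes. The CHR letters were in 0, 2 and 0 of these promoters. A match is a description of the letters in this window and not evidence of binding.

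Mki67, the proliferation antigen Ki-67, stood at 7.34, 8.26 and 8.03 on the 6 h arrays and at 4.63, 4.87 and 4.77 on the 1 d arrays, an 8.71-fold fall (log2 -3.12, SE 0.48, adjusted p = 0.0001). All 1 d values lay below all 6 h values and below the array medians of 5.66 to 5.77. In vehicle glands Mki67 stood at 5.72, 6.55 and 6.30 at 6 h and 7.34, 7.62 and 6.80 at 1 d, with group means between those of the treated glands, and its course of 1.06 was not called (adjusted p = 0.319). The treated and vehicle courses of Mki67 differed by -4.19 (SE 0.67, adjusted p = 0.00049).

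Cdk1, the kinase that drives entry into mitosis, was at 7.91, 8.53 and 8.70 at 6 h and 5.14, 5.33 and 5.75 at 1 d (log2 -2.97, SE 0.49, adjusted p = 0.00029). Its partner cyclin A2 (Ccna2) fell from 5.87, 6.98 and 6.55 to 3.45, 3.91 and 4.01 (log2 -2.67, SE 0.43, adjusted p = 0.00021). Neither gene had overlapping values between the 2 times. Aurkb, the kinase of the chromosomal passenger complex, was at 6.51, 7.07 and 6.92 and then at 4.79, 4.71 and 4.84 (log2 -2.06, SE 0.30, adjusted p = 5.3e-05). The kinesin Kif22, which moves chromosomes on the spindle, went from 6.44, 7.18 and 7.04 to 4.58, 4.63 and 4.96 (log2 -2.17, SE 0.31, adjusted p = 4.1e-05). Prc1, which bundles microtubules of the central spindle, fell by 2.79, and Cks2, a small subunit that binds cyclin-dependent kinases, fell by 2.12 on the log2 scale (adjusted p = 0.00024 and 0.00028 in limma). The array of 6 h replicate 1 was the lowest of the 3 at 6 h in Mki67, Cdk1, Ccna2, Aurkb and Kif22.

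The score of the G2 and M phase list gives the same order over whole arrays. It was 0.71, 1.32 and 1.19 at 6 h and -0.66, -0.67 and -0.51 at 1 d in treated glands, and -0.10, 0.12 and 0.08 and 0.65, 0.83 and 0.22 in vehicle glands. The treated glands were thus above the vehicle glands at 6 h and below them at 1 d. By gene means, 36 of 38 members were above their vehicle level at 6 h (median difference 1.10) and 38 of 38 were below it at 1 d (median difference -1.11). The difference in course from the vehicle glands was called lower for 29 of 38 members, against 2.16% of all genes, and limma called 0 of the 38 in the vehicle glands alone (4 at an unadjusted p under 0.05), against 0.174% higher and 0.434% lower over all genes. Leaving out 1 array left between 24 and 31 members called in treated glands. For the difference from vehicle glands the count was 19 without treated 6 h replicate 2 or without vehicle 1 d replicate 2.

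Genes of DNA replication fell less far. Of 36 measured S phase genes, 22 fell and none rose, against 5.48% of all genes called lower. The median course was -0.72 (list score 0.25, 0.68 and 0.68 at 6 h and -0.28, -0.21 and -0.21 at 1 d). The count of fallers was 9 without 6 h replicate 2 or without 6 h replicate 3, and 12 without 1 d replicate 1. Cyclin E2 (Ccne2), which drives entry into S phase, was at 5.20, 5.99 and 5.82 at 6 h and 3.99, 3.84 and 3.77 at 1 d (log2 -1.81, SE 0.27, adjusted p = 5.8e-05). In vehicle glands Ccne2 was at 3.97, 4.04 and 4.10 and 4.52, 5.20 and 4.18, so the treated arrays at 6 h were the high ones at that time. Uhrf1, which carries DNA methylation through replication, fell from 5.91, 6.92 and 6.60 to 4.53, 4.29 and 4.61 (log2 -1.998, SE 0.32, adjusted p = 0.00014). Mcm4, a subunit of the replicative helicase, fell by 1.44 (adjusted p = 5.8e-05) and Esco2, which acetylates cohesin in S phase, by 2.13 on the log2 scale (adjusted p = 8.3e-06 in limma). In vehicle glands 35 of the 36 had a positive course, with a median of 0.43, and limma called 0 (20 at an unadjusted p under 0.05). For 23 of the 36 genes the treated course was called lower than the vehicle course, against 2.16% of all genes. This difference, with a median of -1.12, thus holds the vehicle course as well as the treated fall. The count was 13 without vehicle 1 d replicate 2, 14 without treated 6 h replicate 2 and 15 without treated 6 h replicate 3 or 1 d replicate 1.

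**Figure D2:**
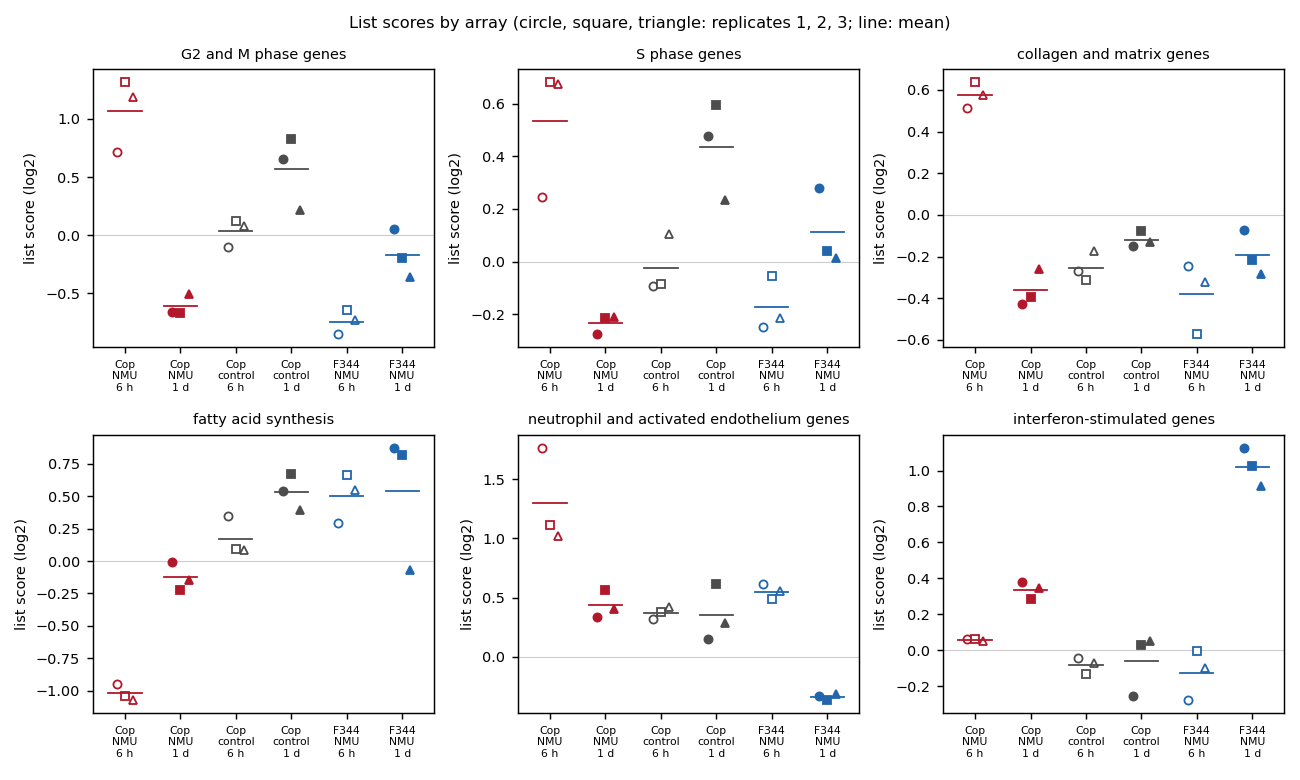
List scores (log2, y axis) of 6 lists on each array of 6 groups (x axis), with replicates 1, 2 and 3 as circle, square and triangle and the group mean as a line. The G2 and M phase scores of treated Cop glands go from 0.71 to 1.32 at 6 h to between -0.67 and -0.51 at 1 d, while the scores of vehicle glands are higher at 1 d than at 6 h.

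Genes of the extracellular matrix also fell together. Of 29 measured collagen and matrix genes, 21 fell, none rose, and the median course was -0.83, against 5.48% of all genes called lower. All 3 arrays at 1 d lay below all 3 at 6 h in 26 of the 29, which held for 18.4% of all genes. Leaving out 1 array left 18 to 20 members called. Lox, the enzyme that crosslinks collagen and elastin, showed the largest fall of the list, from 10.11, 10.36 and 10.34 at 6 h to 7.78, 7.70 and 7.72 at 1 d (log2 -2.54, SE 0.27, adjusted p = 4e-07), which is 5.81-fold. Its level in vehicle glands was 7.78, 7.68 and 7.73 at 6 h and 7.24, 7.72 and 7.09 at 1 d. Only the treated arrays at 6 h were high in Lox, among the 12 Cop arrays of these times.

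Elastin (Eln) was at 8.65, 8.81 and 8.59 at 6 h and 6.77, 6.41 and 6.89 at 1 d (log2 -1.99, SE 0.20, adjusted p = 1.8e-07), while its second probe set gave -0.48 (adjusted p = 0.151). Fibronectin (Fn1) fell from 12.35, 12.59 and 12.60 to 11.05, 11.09 and 11.13 (log2 -1.42, SE 0.18, adjusted p = 6.2e-06). Fibrillin 1 (Fbn1), which builds microfibrils, fell from 11.38, 11.58 and 11.54 to 10.03, 10.16 and 10.10 (log2 -1.40, SE 0.16, adjusted p = 1.1e-06). Sparc, a collagen-binding glycoprotein, fell in both of its probe sets, by 1.71 and 1.14 on the log2 scale. Type I collagen fell too, with Col1a2 at 13.28, 13.43 and 13.55 and then 12.29, 12.36 and 12.30 (log2 -1.10, SE 0.16, adjusted p = 3.9e-05). In vehicle glands Col1a2 was at 11.75, 11.70 and 11.99 at 6 h and 12.32, 12.68 and 12.39 at 1 d, and this course of 0.65 missed the threshold (adjusted p = 0.0567). The treated course was called lower than the vehicle course for 16 of the 29 genes, against 2.16% of all genes. By gene means 27 of the 29 exceeded the vehicle level at 6 h (median difference 0.87) and 22 were under it at 1 d (median difference -0.15).

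Genes that remodel the matrix were mixed. Of 16 measured proteases and inhibitors, 4 fell and 1 rose, against 5.48% of all genes called lower and 3.23% higher. Adamts4, a protease that cuts proteoglycans, fell from 7.47, 7.30 and 7.15 to 5.14, 5.20 and 5.44 (log2 -2.05, SE 0.30, adjusted p = 5.3e-05). The inhibitor Timp1 fell from 10.67, 9.95 and 10.05 to 8.75, 9.11 and 9.07 (log2 -1.24, SE 0.20, adjusted p = 0.00014), while in vehicle glands it rose from 8.67, 8.46 and 8.79 to 9.50, 9.66 and 9.26 (log2 0.83, adjusted p = 0.0489), a vehicle call that was lost without any of 5 of the 6 vehicle arrays (adjusted p up to 0.382). The member that rose was Mmp11, stromelysin 3, from 7.04, 6.05 and 5.74 to 8.01, 7.97 and 7.87 (log2 1.68, adjusted p = 0.0263). Its call was lost when any array but 6 h replicate 1 was left out (adjusted p up to 0.122). In vehicle glands Mmp11 went the other way, from 7.51, 8.36 and 6.94 to 5.02, 5.35 and 5.50 (log2 -2.31, adjusted p = 0.0189), and the courses differed by 3.99 (adjusted p = 0.0007). The vehicle call of Mmp11 was lost without vehicle 6 h replicate 1 or 2 or 1 d replicate 1 or 2 (adjusted p up to 0.254).

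Lipid synthesis moved in the opposite direction. Of 19 measured genes of fatty acid synthesis, 13 rose and 1 fell, with a median course of 0.91, against 3.23% of all genes called higher. The count of risers was 8 without 6 h replicate 2 and 7 without 1 d replicate 3. Srebf1, the transcription factor that switches on this pathway under insulin, was at 9.02, 8.85 and 9.01 at 6 h and 10.97, 10.54 and 10.61 at 1 d (log2 1.75, SE 0.15, adjusted p = 3.6e-09), a 3.35-fold rise. Its vehicle levels were 10.05, 10.23 and 10.29 and 10.50, 10.42 and 10.08, so the 3 treated arrays at 6 h were the low ones. Fatty acid synthase (Fasn) rose from 10.54, 10.40 and 10.30 to 12.47, 12.21 and 12.30 (log2 1.91, SE 0.21, adjusted p = 6.4e-07), and a second probe set of Fasn gave 2.56. Acetyl-CoA carboxylase (Acaca), which makes the malonyl-CoA that Fasn consumes, rose from 8.79, 8.75 and 8.66 to 9.86, 9.86 and 10.14 (log2 1.22, SE 0.20, adjusted p = 0.00025). Thrsp, a lipogenic regulator, rose from 12.41, 12.46 and 12.46 to 13.35, 13.37 and 13.30 (log2 0.90, SE 0.16, adjusted p = 0.0004). Pnpla3, a lipase family member that Srebf1 is known to induce, rose from 5.33, 4.80 and 4.40 to 7.82, 7.69 and 7.85 (log2 2.94, SE 0.60, adjusted p = 0.00222).

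The rise did not bring these genes up to the vehicle level in most cases. By gene means, 18 of the 19 were below the vehicle glands at 6 h (median difference -0.98) and 17 were still below them at 1 d (median difference -0.56). Acaca, at 9.86, 9.86 and 10.14 in treated glands at 1 d, compared with 11.20, 11.34 and 11.10 in vehicle glands. The member that fell was stearoyl-CoA desaturase (Scd), from 11.12, 10.15 and 10.40 to 9.81, 9.28 and 9.46 (log2 -1.04, SE 0.29, adjusted p = 0.029), a call lost without 6 h replicate 1 or 3 or without 1 d replicate 2 or 3 (adjusted p up to 0.186). Scd in vehicle glands was 12.41, 10.57 and 11.63 and 12.32, 12.70 and 12.31, and the courses differed by -1.95 (adjusted p = 0.0079). Over the list the treated course was called higher than the vehicle course for 3 genes and lower for 1, against 0.878% and 2.16% of all genes. The call of Thrsp among the 3 was lost whichever array was left out (adjusted p up to 0.117). Srebf1 had the smallest p of the 3 (difference 1.60, adjusted p = 4.8e-05), and that of Acaca was not called (difference 0.80, adjusted p = 0.184).

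Some genes of fat storage rose. Of 24 adipocyte genes 8 rose, none fell and 16 were not called, with a median course of 0.35 and 8 negative values. Over all genes 3.23% were called higher. Angptl8, a feeding-induced hormone of liver and fat that inhibits lipoprotein lipase, had the largest rise of the named genes, from 5.58, 5.12 and 5.27 at 6 h to 9.71, 8.53 and 8.61 at 1 d (log2 3.63, SE 0.56, adjusted p = 0.00015), or 12.3-fold. Vehicle glands held Angptl8 at 9.95, 9.27 and 9.83 and 9.51, 9.72 and 9.44, well above the treated arrays at 6 h. Agpat2, an acyltransferase of triglyceride synthesis, rose from 8.68, 9.01 and 9.27 to 10.76, 10.77 and 10.98 (log2 1.85, SE 0.22, adjusted p = 3.7e-06). Glycerol-3-phosphate dehydrogenase (Gpd1) rose from 10.68, 10.89 and 11.05 to 12.09, 12.05 and 11.99 (log2 1.17, SE 0.19, adjusted p = 0.00022). Adiponectin (Adipoq), the defining adipocyte hormone, stood at 11.90, 12.02 and 12.07 and 11.87, 11.77 and 11.63, and its course of -0.24 was not called (adjusted p = 0.374). Mdh1, the cytosolic malate dehydrogenase, rose by 1.45 (adjusted p = 5.5e-07) and the glutamine transporter Slc1a5 by 1.28 (adjusted p = 3.7e-08), the latter from 9.41, 9.45 and 9.33 to 10.79, 10.57 and 10.67. Slc1a5 had the smallest p among probe sets with 1 gene symbol whose treated course exceeded the vehicle course (difference 1.59, adjusted p = 1.9e-06 in limma).

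A few genes that rise in fasting fell. Angptl4, a fasting-induced inhibitor of lipoprotein lipase, was at 11.63, 11.32 and 11.43 at 6 h and 7.53, 8.12 and 7.55 at 1 d (log2 -3.72, SE 0.67, adjusted p = 0.0008), a 13.2-fold fall. Pdk4, which turns off glucose oxidation, was at 10.41, 10.44 and 10.27 and then 6.27, 7.06 and 6.61 (log2 -3.72, SE 0.78, adjusted p = 0.00341). Cpt1a, which admits fatty acids to mitochondria, fell from 9.68, 9.73 and 9.61 to 8.08, 8.84 and 8.31 (log2 -1.26, SE 0.25, adjusted p = 0.00147). The 3 genes were high on every treated array at 6 h, while vehicle glands had Angptl4 at 8.79, 8.12 and 8.70 at 6 h and Pdk4 at 6.72, 7.35 and 6.28. The difference from the vehicle course missed the threshold for Angptl4 (-3.35, adjusted p = 0.0618) and for Pdk4 (-3.002, adjusted p = 0.209). Of the 19 measured genes of this list 4 fell and 1 rose (5.48% and 3.23% over all genes), with a median of -0.07. The others called were Txnip, which restrains glucose uptake (log2 -0.53), and the muscle-type Cpt1b, which rose (log2 0.89). In glycogen metabolism 3 of 13 genes rose, against 3.23% of all genes. Leading these was the phosphatase subunit Ppp1r3b, which brings glycogen synthase to glycogen, from 6.31, 6.32 and 6.24 to 8.77, 8.19 and 7.99 (log2 2.03, SE 0.51, adjusted p = 0.0145). Its call was lost without 6 h replicate 2 or 1 d replicate 1 (adjusted p up to 0.0788). Glycogen phosphorylase (Pygl) rose by 1.04 (adjusted p = 0.00011). The difference from the vehicle course was called for 0 of the 13 glycogen genes by limma, against 3.04% of all genes. At an unadjusted p under 0.05 stood 1 of the 13.

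Few genes of cholesterol synthesis passed the test. All 20 measured genes had a positive course, with a median of 0.44, but only 6 were called, against 3.23% of all genes called higher. The count was 4 with the replicate block and 2 without 6 h replicate 2 or without 1 d replicate 3. Insig1, the sterol-regulated brake on Srebf processing, rose from 9.60, 9.45 and 9.52 to 11.09, 10.83 and 11.17 (log2 1.51, SE 0.26, adjusted p = 0.00046). By gene means all 20 were below the vehicle glands at both times, with a median difference of -0.83 at 6 h and -0.40 at 1 d. The difference in course from the vehicle glands was called for 0 of the 20 by limma, against 3.04% of all genes. At an unadjusted p under 0.05 stood 6 of the 20.

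**Figure D3:**
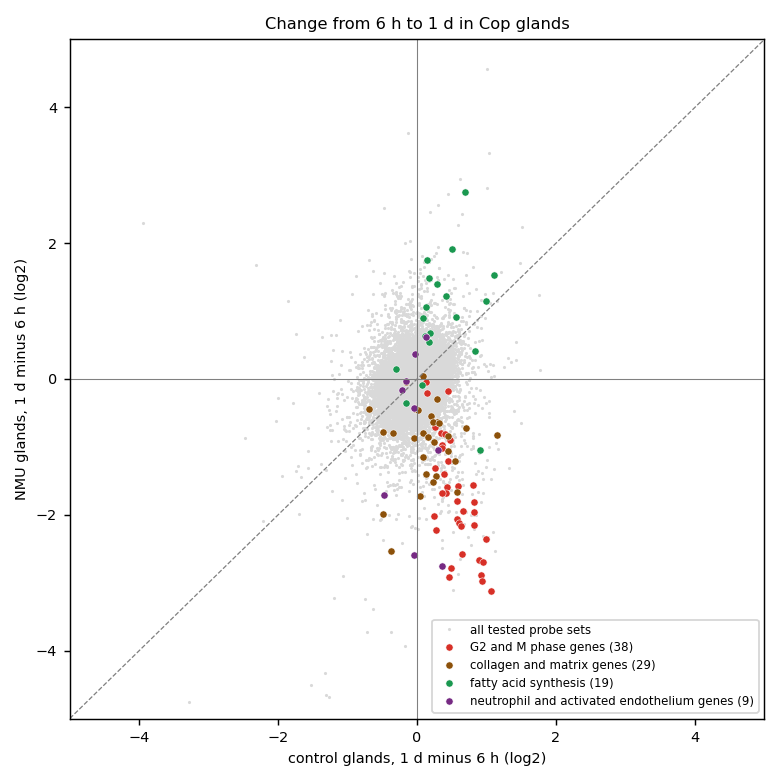
Difference between 1 d and 6 h (log2) in Cop NMU glands (y axis) against the same difference in Cop vehicle glands (x axis), 1 point per gene for 4 lists and grey points for all tested probe sets. The 2 axes share no array. Genes of G2 and M phase lie at the lower right, below 0 in treated glands and, except 1, above 0 in vehicle glands, and most genes of fatty acid synthesis lie above the dashed line of equal change.

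The calprotectin genes and E-selectin fell. S100a8, a subunit of calprotectin and abundant in neutrophils, was at 7.38, 6.004 and 5.98 at 6 h and 3.81, 3.86 and 3.92 at 1 d (log2 -2.59, SE 0.26, adjusted p = 1e-07). Its partner S100a9 was at 8.42, 7.04 and 6.85 and then 4.14, 4.73 and 5.18 (log2 -2.75, SE 0.35, adjusted p = 8.2e-06). In both genes 6 h replicate 1 was the highest array and no values overlapped between the times. Vehicle glands had S100a8 at 4.18, 3.80 and 4.33 and 3.93, 4.55 and 3.71, near the treated arrays at 1 d, and the courses differed by -2.55 (adjusted p = 0.00012). E-selectin (Sele), which captures leukocytes on activated vessels, fell from 6.89, 7.18 and 6.79 to 5.79, 6.18 and 5.76 (log2 -1.04, SE 0.25, adjusted p = 0.00721), a call lost without 6 h replicate 2 (adjusted p = 0.0575). These were the 3 of 9 measured genes of the list that were called, against 5.48% of all genes called lower. All 3 also fell in F344 glands given NMU. The list names 29 genes, of which only these 9 were measured. In 2 of the 9 all 3 arrays at 1 d lay above all 3 at 6 h, which held for 12.7% of all genes. In 5 of the 9 all lay below, which held for 18.4% of all genes.

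Part of the early response genes fell from 6 h to 1 d. Of 33 immediate early genes 10 fell and none rose, against 5.48% of all genes called lower. The count was 4 without 6 h replicate 2 or without 1 d replicate 1, 5 without 1 d replicate 3 and 6 without 6 h replicate 1 or 3. In vehicle glands the median course of the 33 was -0.07, with 20 negative values. The treated course was called lower than the vehicle course for 2 of the 33, against 2.16% of all genes. Myc, the growth-promoting transcription factor, fell from 9.78, 9.73 and 9.60 to 8.14, 8.81 and 8.57 (log2 -1.20, SE 0.20, adjusted p = 0.0002). Ier3, an early response gene of stress signalling, fell from 10.29, 10.34 and 10.20 to 8.77, 8.72 and 8.79 (log2 -1.52, SE 0.28, adjusted p = 0.00084). Egr2 fell from 7.62, 9.87 and 9.65 to 5.75, 7.11 and 7.31 (log2 -2.32, SE 0.52, adjusted p = 0.00564), but vehicle glands at 8.73, 8.79 and 8.06 and 9.16, 9.51 and 9.10 lay within the range of the treated arrays at 6 h, and the call was lost without 6 h replicate 2 or 1 d replicate 1 (adjusted p up to 0.0596). Heme oxygenase 1 (Hmox1), which degrades heme and marks oxidative stress, fell from 9.73, 9.28 and 9.31 to 7.66, 7.91 and 7.97 (log2 -1.59, SE 0.27, adjusted p = 0.00028), and its course differed from that of vehicle glands by -1.91 (adjusted p = 0.00386). Metallothionein 2A (Mt2A), a metal- and glucocorticoid-induced gene, fell from 11.99, 11.44 and 11.43 to 9.75, 10.26 and 9.69 (log2 -1.72, SE 0.24, adjusted p = 3.3e-05). Amphiregulin (Areg), the epidermal growth factor receptor ligand of ductal growth, fell from 8.86, 9.85 and 10.02 to 4.33, 7.005 and 5.60 (log2 -3.93, SE 0.90, adjusted p = 0.0068). Its vehicle levels were 8.996, 8.98 and 8.95 and 8.79, 9.07 and 8.54, so the treated arrays at 1 d were the low ones, and the call was lost without 1 d replicate 1 (adjusted p = 0.0568).

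Targets of p53, which DNA damage activates, changed in part. Of 26 measured targets 7 fell and 2 rose, against 5.48% of all genes called lower and 3.23% higher. The median course was -0.39. The count of fallers was 2 without 6 h replicate 1 or without 6 h replicate 2, 3 without 1 d replicate 1, 4 without 1 d replicate 2 and 1 without 1 d replicate 3. Cdkn1a, the p21 inhibitor of cyclin-dependent kinases, was at 8.61, 8.22 and 8.55 at 6 h and 7.61, 7.42 and 7.80 at 1 d (log2 -0.85, SE 0.26, adjusted p = 0.0421). The values did not overlap, but the call was lost whichever array was left out (adjusted p up to 0.141) and after quantile normalization. Vehicle glands had Cdkn1a at 7.26, 7.16 and 6.97 and 7.13, 7.01 and 6.83, so that the treated arrays were above all vehicle arrays at both times. Plk2, a p53-induced kinase, fell from 9.30, 9.01 and 8.88 to 8.19, 8.42 and 8.01 (log2 -0.86, SE 0.18, adjusted p = 0.0022). Cyclin G1 (Ccng1) was at 11.36, 10.77 and 10.83 and then 10.20, 10.47 and 10.25 (log2 -0.68, SE 0.19, adjusted p = 0.0215), a call lost without 6 h replicate 1, 1 d replicate 1 or 1 d replicate 3 (adjusted p up to 0.164). The death receptor Fas was at 7.93, 7.68 and 7.39 and then 6.83, 7.05 and 6.87 (log2 -0.75, SE 0.19, adjusted p = 0.0139), with the call lost without 6 h replicate 1 or 2 or 1 d replicate 1 or 3 (adjusted p up to 0.0933). Mdm2, which degrades p53, was at 9.71, 8.71 and 8.67 and 8.51, 8.54 and 8.43, with replicate 1 alone high at 6 h, and was not called (adjusted p = 0.0871). For 0 of the 26 targets was the course called different from the vehicle course by limma, against 3.04% of all genes. At an unadjusted p under 0.05 stood 6 of the 26.

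Mgmt, which removes the methyl group that NMU leaves at the O6 position of guanine, rose from 7.52, 7.30 and 7.63 at 6 h to 8.01, 8.19 and 8.22 at 1 d (log2 0.66, SE 0.14, adjusted p = 0.00328). It is a member of both the p53 and the repair list. Its vehicle levels were 7.56, 7.54 and 7.63 and 7.55, 7.86 and 7.59, and the treated arrays at 1 d lay above all of these, but the difference in course was not called (0.57, adjusted p = 0.167). Of the 18 measured genes of alkylation and excision repair, Mgmt was the 1 that rose and the replication nuclease Fen1 the 1 that fell (log2 -0.71, adjusted p = 0.0169 in limma). Over all genes 3.23% were called higher and 5.48% lower.

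**Figure D4:**
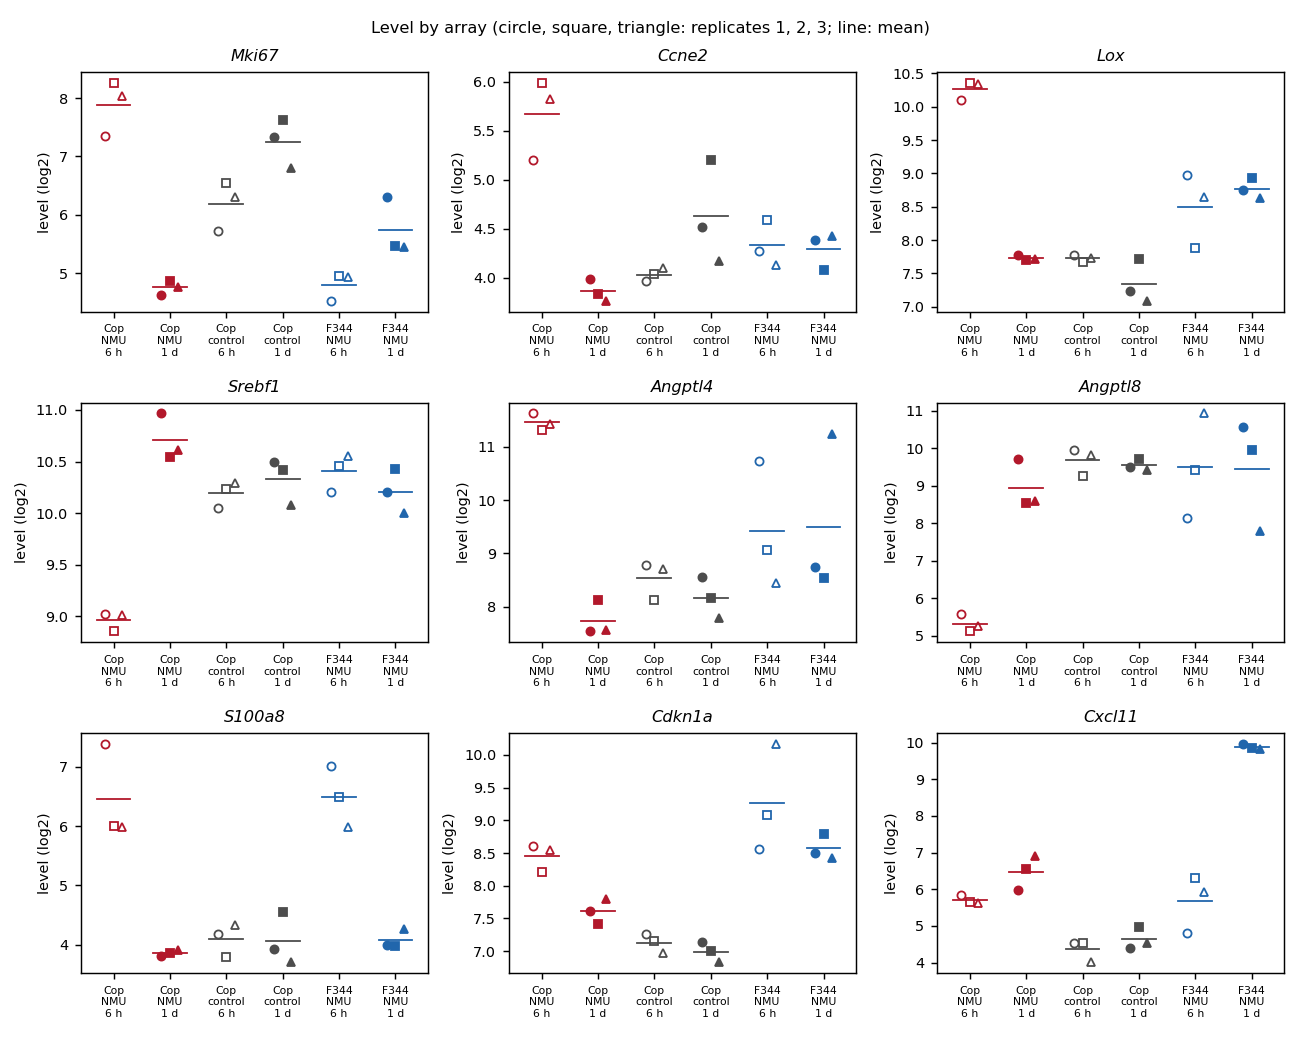
Level (log2, y axis) of 9 genes on each array of treated and vehicle Cop glands and treated F344 glands (x axis), with replicates 1, 2 and 3 as circle, square and triangle and the group mean as a line. Mki67, Lox, Srebf1, Angptl4 and S100a8 separate the 2 times of treated Cop glands with no overlap, and Cxcl11 is high in the F344 arrays at 1 d, between 9.82 and 9.96.

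The same interval in F344 glands given NMU changed 360 probe sets (1.74%) and 2.09% of genes, with 252 of the probe sets higher at 1 d (1.21%). The count was 143 without F344 1 d replicate 1, 187 without 6 h replicate 1 and 225 without 6 h replicate 2. The 2 courses share no array, and their difference (Cop minus F344) was called for 458 probe sets (2.21%), of which 334 were lower (1.61%), and for 305 without Cop 6 h replicate 2. In the G2 and M phase list limma called 0 of 38 genes in F344 (12 at an unadjusted p under 0.05), against 1.56% higher and 0.53% lower over all genes, where the score went from -0.85, -0.64 and -0.73 to 0.05, -0.19 and -0.36, and the difference between strains was called lower for 28 of 38, against 2.19% of all genes. Mki67 in F344 was at 4.52, 4.95 and 4.94 at 6 h and 6.31, 5.47 and 5.44 at 1 d, and its difference in course was -4.06 (SE 0.67, adjusted p = 0.00069). The collagen and matrix list had 1 gene higher and none lower in F344, and the difference was called lower for 16 of 29. Lox in F344 was at 8.97, 7.88 and 8.64 and 8.75, 8.93 and 8.63, with a difference in course of -2.81 (adjusted p = 4.5e-05).

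For fatty acid synthesis the Cop course was called higher than the F344 course in 8 of 19 genes, against 0.808% of all genes, and limma called 0 of the 19 in F344 (2 at an unadjusted p under 0.05). The count was 4 without F344 6 h replicate 2 or 1 d replicate 3 and without Cop 6 h replicate 2 or 3 or 1 d replicate 3, and 5 without F344 6 h replicate 1 or Cop 1 d replicate 2. The list score in F344 was 0.29, 0.66 and 0.55 at 6 h and 0.87, 0.82 and -0.07 at 1 d, where replicate 3 stood apart. Srebf1 in F344 was at 10.21, 10.46 and 10.56 and 10.20, 10.42 and 10.001, and the difference was 1.94 (adjusted p = 3.8e-06). The F344 arrays were uneven in the genes of fasting, with Angptl4 at 10.74, 9.07 and 8.44 at 6 h and 8.74, 8.53 and 11.23 at 1 d, high in replicate 1 at 6 h and in replicate 3 at 1 d. Angptl8 was low on the same 2 F344 arrays, at 8.14, 9.41 and 10.93 and 10.56, 9.96 and 7.80. Without 1 d replicate 3 of F344 the strain difference of Angptl4 was not called, and the same was so for 7 other single arrays (adjusted p up to 0.108). S100a8 fell in F344 as in Cop, from 7.003, 6.49 and 5.98 to 4.003, 3.98 and 4.26 (log2 -2.41, adjusted p = 3.2e-07), and the difference between the strains was -0.18 (SE 0.36, adjusted p = 0.943).

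The course of interferon-stimulated genes differed between the strains. In Cop 5 of 40 measured genes rose between 6 h and 1 d and none fell, against 3.23% of all genes called higher. The median course was 0.23, and 2 rose with the replicate block. Leaving out 1 array gave between 0 risers, without 1 d replicate 3, and 3. The median course in Cop vehicle glands was 0.07. The treated Cop course was called different from the vehicle course for 0 of the 40 by limma, against 3.04% of all genes. At an unadjusted p under 0.05 stood 4 of the 40. In F344 35 of the 40 rose, against 1.56% of all genes, with a median of 1.01. The Cop course was called lower than the F344 course for 15, against 2.19% of all genes. The list score was 0.06, 0.06 and 0.05 at 6 h and 0.38, 0.28 and 0.35 at 1 d in Cop, against -0.28, -0.01 and -0.10 and 1.13, 1.02 and 0.91 in F344. Irf7, the factor that amplifies interferon expression, was at 8.84, 8.92 and 8.98 and 9.73, 9.42 and 9.57 in Cop (log2 0.66, adjusted p = 0.0465), a call lost whichever array was left out (adjusted p up to 0.168) and with the replicate block. Isg15, the ubiquitin-like protein of the response, stood at 8.73, 9.19 and 9.32 and 9.35, 9.12 and 9.31 in Cop and was not called (adjusted p = 0.717), but rose in F344 from 7.75, 8.68 and 8.72 to 10.51, 10.53 and 10.17 (log2 2.02, adjusted p = 1.9e-06). The strains differed in the course of Isg15 by -1.84 (adjusted p = 0.00167).

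Cxcl9 and Cxcl11, chemokines that recruit T cells under interferon, differed in the same direction. Across the chemokine list the Cop course was called lower than the F344 course for 3 of 33 measured genes, these 2 and Ccl6. Over all genes the share was 2.19%. Cxcl9 rose in Cop from 7.75, 7.84 and 7.97 to 8.94, 8.57 and 8.63 (log2 0.86, SE 0.17, adjusted p = 0.00126) and in F344 from 8.60, 8.69 and 8.81 to 10.90, 10.85 and 10.78 (log2 2.15, adjusted p = 1e-09), with a difference of -1.29 (adjusted p = 0.00167). Cxcl11 was not called in Cop, at 5.83, 5.65 and 5.62 and 5.98, 6.54 and 6.91 (adjusted p = 0.0999), and rose in F344 by 4.19 (adjusted p = 6e-11). The difference between strains was -3.41 (SE 0.40, adjusted p = 8.3e-06). Lgals3bp, a secreted glycoprotein of the interferon response, was at 9.34, 9.47 and 9.37 and 9.37, 9.41 and 9.40 in Cop, with a course near 0, and went from 8.42, 8.37 and 8.59 to 9.92, 10.07 and 9.84 in F344 (difference -1.48, adjusted p = 8.3e-06). Cxcl13, which attracts B cells, rose in Cop from 10.30, 10.11 and 10.02 to 11.42, 11.72 and 11.06 (log2 1.25, SE 0.32, adjusted p = 0.0149), with the call lost without 6 h replicate 2 or 3 or 1 d replicate 2 (adjusted p up to 0.0655).

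Few markers of T and NK cells passed the test, although the median course of the 29 was 0.84. Over all genes 3.23% were called higher and 5.48% lower. The 3 that rose are cytotoxic or cytokine receptor genes and the 1 that fell was Thy1 (log2 -1.55), which fibroblasts also express. Granzyme M (Gzmm) rose from 6.59, 5.98 and 6.13 to 7.33, 7.42 and 7.96 (log2 1.34, SE 0.29, adjusted p = 0.00402). Il2rb, the shared receptor chain for several interleukins, was at 5.83, 5.37 and 5.40 and then 6.60, 6.22 and 7.22 (log2 1.15, SE 0.31, adjusted p = 0.022), and Nkg7, a granule protein, at 5.76, 5.75 and 5.49 and then 6.09, 6.34 and 6.76 (log2 0.73, SE 0.21, adjusted p = 0.0333). The call of Il2rb was lost without 4 of the 6 arrays (adjusted p up to 0.165), and that of Nkg7 without 5 of them (adjusted p up to 0.223) and with the replicate block. The list score was -0.03, -1.04 and -0.99 at 6 h, -0.13, -0.21 and 0.31 at 1 d, and 0.80, 0.40 and 0.69 and 0.09, 0.21 and 0.95 in vehicle glands, and 27 of 29 genes were below the vehicle level at 6 h by their means. Without 6 h replicate 1, which scored highest at 6 h, the median course of the list was 1.22. For 16 B cell markers the median was 0.58, with 0 called by limma and 0 at an unadjusted p under 0.05.

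A minority of milk genes passed the test. Of 15 measured, 4 rose and none fell, against 3.23% of all genes called higher. The median was 0.96, and 2 were called without 6 h replicate 2 or 3 or without 1 d replicate 1. Mfge8, a milk fat globule protein, rose from 10.79, 10.58 and 10.69 to 11.64, 11.60 and 11.70 (log2 0.96, SE 0.22, adjusted p = 0.00525). Muc1, the apical mucin, rose from 6.18, 4.53 and 4.96 to 7.64, 7.24 and 6.20 (log2 1.80, SE 0.38, adjusted p = 0.00326). Alpha-lactalbumin (Lalba) was at 12.63, 12.21 and 12.34 and then 13.54, 13.45 and 13.18 (log2 0.996, SE 0.26, adjusted p = 0.0156), with the call lost without 6 h replicate 2 or 3 or 1 d replicate 1 (adjusted p up to 0.0869). Kappa-casein (Csn3) was at 11.40, 8.57 and 8.60 and then 13.02, 12.02 and 11.70 (log2 2.72, SE 0.81, adjusted p = 0.0389), and its call was lost when any array but 6 h replicate 1 was left out (adjusted p up to 0.207). In Csn3 and Muc1 the 6 h replicate 1 was the high array of its group. Vehicle glands had Csn3 at 12.06, 12.47 and 10.77 and 12.64, 12.51 and 11.49. The difference in course was called for 0 of the 15 genes by limma, against 3.04% of all genes. At an unadjusted p under 0.05 stood 4 of the 15. In the epithelial marker lists 1 of 22 luminal genes rose and 1 fell, and 2 of 19 basal genes fell. Over all genes 3.23% were called higher and 5.48% lower, so these small counts are not read as a change of the lists.

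Some chaperones and mitochondrial genes rose. Of 22 heat shock chaperones 7 rose and 1 fell, against 3.23% of all genes called higher and 5.48% lower. Of 29 chaperones of the endoplasmic reticulum 5 rose, with 2 such chaperones called without 1 d replicate 3. Hspe1 and Hspd1, the pair that folds proteins in the mitochondrion, rose by 0.61 (adjusted p = 0.00033) and 0.61 (adjusted p = 0.00135). Hspd1 went from 10.88, 10.99 and 11.06 to 11.60, 11.56 and 11.60. Its vehicle levels at 6 h were 11.48, 11.59 and 11.70, and those at 1 d are not compared here. Hspa5, the main chaperone of the endoplasmic reticulum, rose from 11.03, 10.91 and 10.94 to 11.74, 11.55 and 11.35 (log2 0.59, SE 0.12, adjusted p = 0.002), against vehicle levels of 11.60, 11.86 and 11.83 and 11.53, 11.50 and 11.54. Of 42 genes of oxidative phosphorylation 10 rose and none fell (median 0.26), against 3.23% of all genes called higher. But the vehicle glands had a median of 0.29 with 4 of the 42 called higher, against 0.174% of all genes. The difference in course was called for 0 of 42 genes by limma, against 3.04% of all genes. At an unadjusted p under 0.05 stood 3 of the 42. Ndufs7, a subunit of complex I, rose from 10.29, 10.30 and 10.39 to 10.72, 11.14 and 11.06 (log2 0.65, SE 0.11, adjusted p = 0.00039). Chchd10, a protein of the mitochondrial cristae, rose from 10.17, 10.30 and 10.26 to 11.30, 11.51 and 11.67 (log2 1.25, SE 0.16, adjusted p = 8.2e-06), where vehicle glands were at 11.05, 11.02 and 11.10 and 10.85, 11.18 and 11.21 (difference in course 1.23, adjusted p = 0.00187).

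Some of the largest changes involved genes that moved in vehicle glands too. Neuronatin (Nnat), an imprinted gene of fat and nervous tissue, had the largest fall of the named genes, from 10.37, 10.73 and 10.88 to 6.68, 5.91 and 5.11 (log2 -4.76, SE 0.76, adjusted p = 0.00023). It was also lower at 1 d in vehicle glands, from 9.35, 8.92 and 10.01 to 6.40, 6.14 and 5.88 (log2 -3.29, adjusted p = 0.0445), a call lost whichever vehicle array was left out (adjusted p up to 0.191), and the courses were not called different (adjusted p = 0.704). Beta-globin (Hbb), carried by red blood cells, fell from 12.16, 11.55 and 11.57 to 7.31, 7.38 and 7.59 (log2 -4.33, SE 0.30, adjusted p = 1.3e-10), against 9.64, 9.94 and 9.51 and 8.67, 8.43 and 7.99 in vehicle glands, and Alas2, which makes heme in red cells, fell by 1.59 (adjusted p = 0.00037). The vehicle call of Hbb was lost with the replicate block and with no filter. Cyp2e1, a xenobiotic-metabolising oxidase, was at 9.52, 8.75 and 8.83 and then 11.31, 11.81 and 10.88 (log2 2.30, SE 0.67, adjusted p = 0.0346), with the call lost when any array but 6 h replicate 1 was left out (adjusted p up to 0.133). In vehicle glands Cyp2e1 went from 9.61, 10.24 and 8.82 to 5.30, 6.12 and 5.40 (log2 -3.95, adjusted p = 0.00434), and the courses differed by 6.25 (SE 0.95, adjusted p = 0.00034), the largest such difference among the named genes. Without vehicle 6 h replicate 2 the vehicle call was lost (adjusted p = 0.0716).

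The heat shock protein gene Hspa1a was not called in treated glands, at 8.12, 7.67 and 7.72 and 9.19, 8.04 and 8.25 (adjusted p = 0.198), but fell in vehicle glands from 9.27, 9.84 and 9.77 to 8.11, 8.01 and 7.52 (log2 -1.75, adjusted p = 0.00344), a call lost without vehicle 6 h replicate 2 (adjusted p = 0.0587), and the courses differed by 2.40 (adjusted p = 0.00097). Dbp, an output gene of the circadian clock, was at 8.87, 8.90 and 9.04 and 9.44, 9.09 and 9.13 in treated glands with no call (adjusted p = 0.454) and rose in vehicle glands from 7.65, 7.94 and 7.50 to 9.08, 9.44 and 8.84 (log2 1.42, adjusted p = 0.00066). The low Dbp values were those of the 3 vehicle arrays at 6 h. The part of time of day in these courses was not tested.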

How the data were processed

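The deposited values are log2 expression levels per probe set from 36 Affymetrix rat arrays hybridised with biotin-labelled cRNA, per the labels' protocols. GCOS is named in the submitters' processing notes. The sources used here do not give summarization or normalization, detection calls were not used here, and array medians lay between 5.66 and 5.77. Their number, 3 arrays a group, limits the precision. Of 31099 probe sets, 20749 above the 40th percentile of their own array on at least 3 arrays were tested, 10293 were left out as dim and 57 were control probe sets. By the platform annotation 20826 probe sets had 1 gene symbol, 436 several and 9780 none. Counts over genes used 1 probe set for each of 11509 genes, that with the highest mean.

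A mean was fitted to each of 12 groups with limma 3.58.1 in R 4.3.3 (eBayes with trend and robust options, two-sided), with Benjamini-Hochberg adjustment over all tested probe sets of a comparison. The fit was tested on simulated data. Gene lists were described by counts and medians. The members and lists were chosen with earlier results of these data known. Named genes were the 12 largest rises and 12 largest falls among called probe sets with non-overlapping times, up to 4 genes of smallest p from each list with at least 3 called members, a list of genes chosen from earlier results, and, for both differences in course, the 5 genes with the lowest p on either side. The text prints a part of these. Others that the text names were chosen after their values were seen. These are list members with calls (Fen1, Txnip, Cks2, Sox17, Ccl11, Ccl9).

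Alternatives were quantile normalization, a floor on low values, other filters, no trend or robust option, the replicate block, the compared arrays alone, a muscle or a T and NK cell score as covariate, and leaving out each array. The labels give the replicate numbers no further meaning, so the main fit did not pair arrays. The replicate block paired same-numbered arrays at 6 h and 1 d within treated Cop, vehicle Cop and treated F344 glands. Deviations of the same-numbered treated Cop arrays correlated at 0.165, 0.255 and 0.157, which does not establish a pairing. Promoter sequences are those of RefSeq on GRCr8.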

Additional observations from a re-analysis of the deposited data

Results flagged for a closer look

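For 43 genes whose values are given in the text the course from 6 h to 1 d after NMU differed between Cop and F344 glands by the interaction test. Only genes that this test called are listed, and some were named for their small p in it. The number 43 is therefore no measure of how common such differences are. Over all genes the test called 3%, 0.808% higher and 2.19% lower in Cop. Each value is the Cop course minus the F344 course on the log2 scale, and both courses rest on 3 arrays at each time.

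Lower in Cop were the cell division genes Mki67 (-4.06), Cdk1 (-4.13), Ccna2 (-3.46), Prc1 (-3.22), Aurkb (-2.99), Cks2 (-2.69) and Kif22 (-2.60) and the S phase genes Uhrf1 (-3.21), Esco2 (-2.63), Ccne2 (-1.77) and Mcm4 (-1.62). The matrix genes and their modifiers were Lox (-2.81), Eln (-2.33), Adamts4 (-2.17), Fbn1 (-2.11), Sparc (-1.84), Fn1 (-1.80), Col1a2 (-1.25) and Timp1 (-1.06). The genes of the interferon response were Cxcl11 (-3.41), Isg15 (-1.84), Lgals3bp (-1.48), Irf7 (-1.40) and Cxcl9 (-1.29). Outside these groups were Nnat (-4.45), Angptl4 (-3.81), Ccl6 (-1.93), Thy1 (-1.68) and Nos3 (-1.07).

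Higher in Cop were the lipid genes Angptl8 (3.68), Srebf1 (1.94), Fasn (1.77), Agpat2 (1.37), Acaca (1.15) and Thrsp (0.86). The remaining ones were Mdh1 (1.75), Chchd10 (1.73), Slc1a5 (1.36), Cpt1b (1.30), Pygl (1.14), Ndufs7 (0.77), Hspe1 (0.77) and Hspd1 (0.72).

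The differences of Thrsp, Acaca, Timp1, Angptl4, Nnat, Cpt1b, Thy1, Nos3, Agpat2 and Hspd1 were no longer called when some single array was left out, for Agpat2 and Hspd1 only F344 1 d replicate 3. With the compared arrays alone, those of Angptl8, Agpat2, Cpt1b, Timp1, Angptl4 and Nnat were not called, nor were those of Thrsp, Cpt1b, Nos3, Timp1, Thy1 and Angptl4 with the replicate block. F344 6 h replicate 1 and 1 d replicate 3 had the highest Angptl4 of their groups, and the part of this in the lipid differences was not tested.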

How the results depend on the processing

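Among the probe sets called in the 5 comparisons, 0 had the opposite sign under any alternative that tested them. The count of called probe sets for Cop NMU glands stayed within 1.5 times 1472 except on leaving out an array, which gave 712 to 1371. For the vehicle course, 103 became 168 after quantile normalization, 67 with no filter and 215 with the compared arrays alone, and leaving out an array gave 9 to 186. The F344 course gave 590 with the T and NK cell score as covariate and 143 to 410 on leaving out an array. On leaving out an array the difference from the vehicle course gave 306 to 497 and that from F344 305 to 443. Under the other alternatives they gave 363 to 748 and 356 to 680, each within 1.5 times its count of 501 and 458. Of 134 named genes called in Cop NMU glands, 93 kept the call whichever array was left out. Among the 134, losses under the other alternatives were Cdkn1a after quantile normalization, Irf7 and Igfbp5 with no trend or robust option, these and Cdkn1a with the muscle score, and Csn3, Cyp2e1, Irf7, Vegfa and Cdkn1a with no filter. The replicate block ended those of Nkg7, Irf7, Msmo1 and Psmb10. The compared arrays alone ended 12 calls, including those of Csn3, Muc1, Cpt1b, Scd, Egr2 and Areg, and the T and NK cell score 12, including those of Csn3, Cyp2e1, Mmp11, Cxcl13, Nkg7, Irf7 and Ccng1.

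With the replicate block, the counts were 1233 for Cop NMU, 44 for vehicle, 363 and 356 for the differences from vehicle and F344, and 271 for F344. Among the named genes it ended the calls of Nkg7, Irf7, Msmo1 and Psmb10 in Cop NMU glands and changed no other call there. Same-numbered arrays correlated at 0.15, 0.175 and 0.025 in vehicle glands and at -0.446, -0.518 and -0.186 in F344 glands. The block paired these arrays too, so its counts for the vehicle and F344 courses rest on a shared number alone.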

Other observations

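Vessel genes were lower at 1 d in part. Of 20 endothelial genes 6 fell and none rose in treated Cop glands, against 5.48% of all genes called lower, with a median course of -0.22, and 2 were called without 6 h replicate 2. They include Sox17, an endothelial transcription factor (log2 -1.14), Nos3, the endothelial nitric oxide synthase (log2 -0.84), and Tie1, a vascular receptor (log2 -0.64). The median course of the 20 in vehicle glands was -0.18, with 16 negative values, against 13 in treated glands. There limma called 0 of the 20 (5 at an unadjusted p under 0.05), against 0.434% of all genes called lower. The treated course was called lower than the vehicle course for 1 of the 20, against 2.16% of all genes. In the chemokine list 4 of 33 genes rose and 3 fell (3.23% and 5.48% over all genes). The fallers were the eosinophil attractant Ccl11 (log2 -0.91), Ccl9 (log2 -1.12) and Ccl6 (log2 -1.19). Leaving out 1 array gave 2 or 3 risers and 1 to 3 fallers, with 1 faller without 6 h replicate 1, 1 d replicate 1 or 1 d replicate 3 and 2 risers without 6 h replicate 2 or 3 or 1 d replicate 2.

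Further lists are given against 3.23% of all genes called higher and 5.48% lower. Of 31 macrophage genes 1 rose and 3 fell, and of 22 glucocorticoid-induced genes 2 rose and 4 fell. Of 27 genes of oxidative and electrophile stress 2 rose and 5 fell. Leaving out 1 array gave 1 or 2 risers and 2 or 3 fallers in the glucocorticoid list, with 2 fallers without 1 d replicate 1 or 3, and 0 risers in the stress list without 6 h replicate 2 or 1 d replicate 3 and 3 fallers without 6 h replicate 1. Among 46 genes of ribosome biogenesis, 40 of skeletal muscle and 11 of mast cells limma called 0 (3, 0 and 2 at an unadjusted p under 0.05). The median course of the skeletal muscle genes was -0.46, with 1 d replicate 1 the lowest array by list score.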
